A study of Neurospora crassa with 2 samples.

Results

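Genes of amino acid breakdown in *Neurospora crassa*, a filamentous ascomycete, were followed by RNA-seq in the wild type (WT) and in Δ*gul*-*1*, a strain that lacks the mRNA binding protein GUL-1. They were NCU09864 and NCU03913 (the α and β subunits of 2-oxoisovalerate dehydrogenase), NCU00591 (the α subunit of methylcrotonoyl-CoA carboxylase), NCU02936 (proline oxidase), NCU02333 (arginase-1, *aga*-*1*) and NCU02084 (annotated as an arginase). These 6 of the 9730 genes in the deposited table were selected on their RPKM ratio between these same 2 libraries, so that their differences are given as a description and support nothing further. Mycelia of both strains came from submerged culture on Avicel, a crystalline cellulose, with Vogel's salts, yeast extract and Tween 80, after 3 days under constant light. There was 1 library per strain (genotypes wild type and delta-gul-1), with 20461987 and 20341292 reads assigned to genes. No replicate library was analysed here, so no p-value is given, and the 95% intervals below cover the counting error of the reads and not the variation between cultures.

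Fungi use amino acids as nitrogen and carbon sources by routes that run mainly through mitochondria. Leucine, isoleucine and valine first lose their amino group to an aminotransferase. The resulting 2-oxo acids are then oxidised to acyl-CoA esters by a complex of E1 (α and β subunits), E2 and E3 proteins, the committed step of the route. For leucine, isovaleryl-CoA dehydrogenase and the biotin enzyme methylcrotonoyl-CoA carboxylase follow, and the route ends in acetyl-CoA and acetoacetate. Proline is oxidised by proline oxidase and pyrroline-5-carboxylate dehydrogenase to glutamate. Arginase splits arginine into urea and ornithine, and ornithine transaminase feeds the ornithine into the same pyrroline-5-carboxylate pool.

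As a check of the labels, the deleted gene *gul*-*1* (NCU01197) went from 203.7 RPKM in the WT library to 2.89 in the other. RPKM divides the reads of a gene by its exon length and by the size of the library, and so allows levels of different genes to be set side by side. Genes above 20 RPKM in at least 1 library were kept. They are called higher where the Δ*gul*-*1* value was 2 or more times that of the WT, and lower where it was 0.5 times or less. Of the 6 genes, 5 were higher and 1 was lower. Among all 4409 genes past the floor, 3.88% were higher (171) and 2.63% were lower (116), and the 6 genes were chosen for lying among these. With TMM scaling of the reads the totals were 137 higher and 151 lower. On the deposited RPKM these genes had a median log2 ratio of 0.11, and TMM scaling shifted every log2 ratio by -0.15, which left the 6 genes with their directions but took NCU09864 within 2-fold. Only NCU00591, *aga*-*1* and NCU02084 passed the floor in both libraries. The other 3 genes passed it in Δ*gul*-*1* alone, so that a gene of their WT level could be counted only if it was higher in Δ*gul*-*1*. Mycelium was sequenced in bulk, where a smaller share of cells that express a gene and less of its RNA per cell cannot be told apart.

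The E1 enzyme of the branched-chain 2-oxo acid complex was read at low levels in the WT and at higher levels in Δ*gul*-*1*. NCU03913, the β subunit gene (chromosome VI of the NC12 assembly, 2121826 to 2123420), was covered by 362 WT reads and 877 Δ*gul*-*1* reads, which correspond to 11.5 and 28.1 RPKM. This was 2.44-fold higher, with an interval of 2.15 to 2.76, and it was the least abundant of the 6 genes in both libraries. NCU09864, the α subunit gene (chromosome VI, 2763705 to 2765732), was covered by 751 and 1509 reads, or 18.9 and 38.2 RPKM in that order. Its ratio of 2.02 (interval 1.85 to 2.21) lay nearest to the 2-fold threshold, and it was 1.82 with TMM scaling and 1.97 with a pseudocount of 1 RPKM. Relative to the median gene, the log2 ratios of the β and α subunit genes were 1.18 and 0.91.

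The E2 core of the complex is encoded by NCU02704, which was not among the 6 genes. Its 646 WT and 1542 Δ*gul*-*1* reads made 14.7 and 35.2 RPKM, and the ratio was 2.40 (interval 2.19 to 2.64). The E3 component, dihydrolipoyl dehydrogenase, is shared with the other 2-oxo acid dehydrogenase complexes. Its gene NCU02407 was far more abundant than E1 and E2, at 104.8 and 90.8 RPKM, with a ratio of 0.866 (interval 0.832 to 0.902). Ratios of 2 genes within 1 library do not depend on how the libraries are scaled. The E2 transcript stood at 1.27 times the E1 β transcript (RPKM) in the WT and at 1.25 times in Δ*gul*-*1*, and the change of this ratio, 0.985, had a counting interval of 0.843 to 1.15 that held 1. The E1 α transcript went from 1.64 to 1.36 times the E1 β transcript, a change by a factor of 0.829 (interval 0.711 to 0.967). Against E3 the E1 β transcript went from 0.110 to 0.309 and the E1 α transcript from 0.180 to 0.420, which are changes of 2.81 (interval 2.47 to 3.21) and 2.33 (interval 2.12 to 2.57). The E1 genes were selected on their change and the E3 gene was not. Shifts of E1 against E3 therefore follow in part from that choice and are given only as a description.

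**Figure D1:**
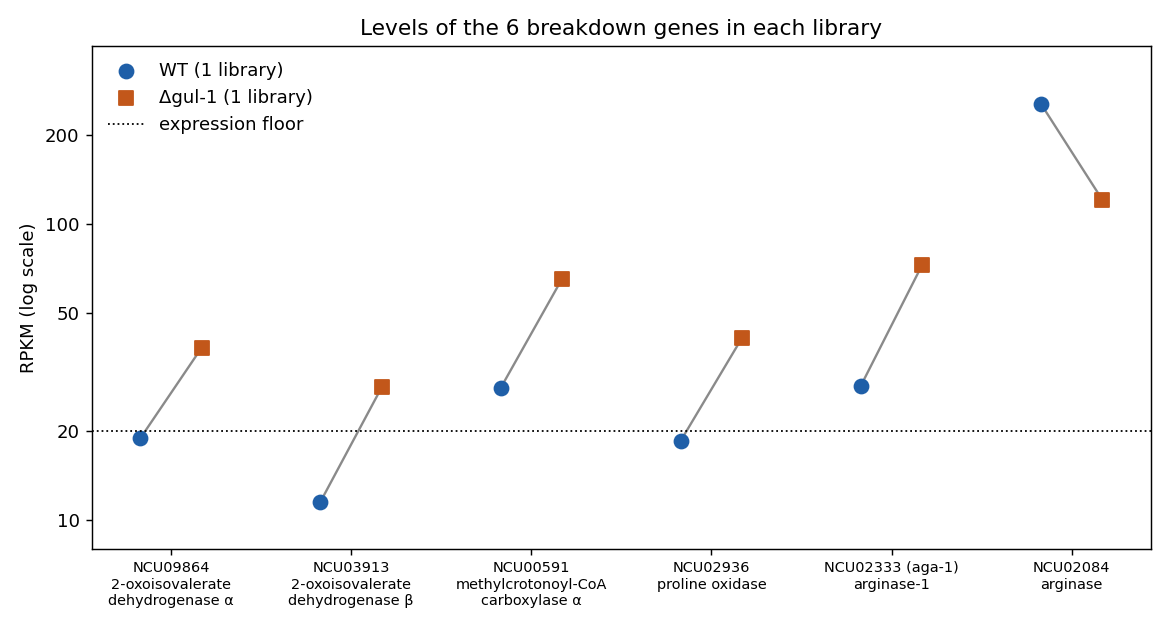
RPKM (log scale) of the 6 genes in the WT library (circles) and the Δ*gul*-*1* library (squares), with a line joining the values of each gene and a dotted line at the floor of 20 RPKM. In 5 genes the Δ*gul*-*1* value lies above that of the WT, and NCU02084, the most abundant gene, goes the other way, from 254.2 to 120.7 RPKM.

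In the leucine branch, NCU00591 encodes the α subunit of methylcrotonoyl-CoA carboxylase, which carries the biotin (chromosome I, 7902755 to 7905805). With 1673 and 3882 reads, it stood at 27.9 RPKM in the WT against 65.2 in Δ*gul*-*1*. The ratio was 2.33 (interval 2.20 to 2.47). By RPKM it ranked 3043 of all genes in the WT and 1390 in Δ*gul*-*1*. The β subunit gene NCU02127 was within 2-fold, with 550 and 953 reads, 13.1 and 22.9 RPKM and a ratio of 1.74 (interval 1.57 to 1.94). The α transcript was therefore 2.12 times the β transcript in the WT and 2.84 times in Δ*gul*-*1*, a change by a factor of 1.34 (interval 1.19 to 1.51). Only the α subunit gene was selected on its change, so this shift follows in part from that choice. NCU02126, the gene of isovaleryl-CoA dehydrogenase, the enzyme just before the carboxylase, lies next to NCU02127 on chromosome I with 366 bases between the gene spans. It had a ratio close to that of its neighbour, 1.83 (interval 1.63 to 2.05), at 13.7 and 25.1 RPKM. At the end of the branch, the hydroxymethylglutaryl-CoA lyase gene NCU05419 stood at 40.3 and 44.2 RPKM, a ratio of 1.10.

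Genes of the aminotransferase step and of the valine branch had ratios under 2. Of the 2 genes annotated as branched-chain aminotransferases, the enzyme class that acts before E1, NCU00792 went from 23.1 to 15.5 RPKM (ratio 0.672, interval 0.605 to 0.746). The other, NCU04292, had 14.6 and 14.5 RPKM. Their annotations do not state which route either gene serves. In the valine branch, the 3-hydroxyisobutyryl-CoA hydrolase gene NCU03777 had a ratio of 0.825 (interval 0.772 to 0.882) and the methylmalonate-semialdehyde dehydrogenase gene NCU09266 one of 1.22 (interval 1.17 to 1.28). Both 3-hydroxyisobutyrate dehydrogenase genes were below the floor. NCU06559 stood at 5.81 and 10.6 RPKM (ratio 1.82, interval 1.52 to 2.18) and NCU10110 at 7.03 and 10.5 RPKM (ratio 1.49, interval 1.28 to 1.74). Of the 10 genes annotated for this breakdown besides the 6 genes, 7 passed the floor, with 1 higher, none lower and 6 within 2-fold. The higher gene, NCU02704, and NCU02126 and NCU02127 passed it in Δ*gul*-*1* alone and NCU00792 in the WT alone, so that these counts depend in part on the floor. Among all genes past the floor, 3.88% were higher, 2.63% lower and 93.5% within 2-fold. Over all 10 genes the median log2 ratio was 0.43, beside 0.15 for all genes with reads in both libraries.

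**Figure D2:**
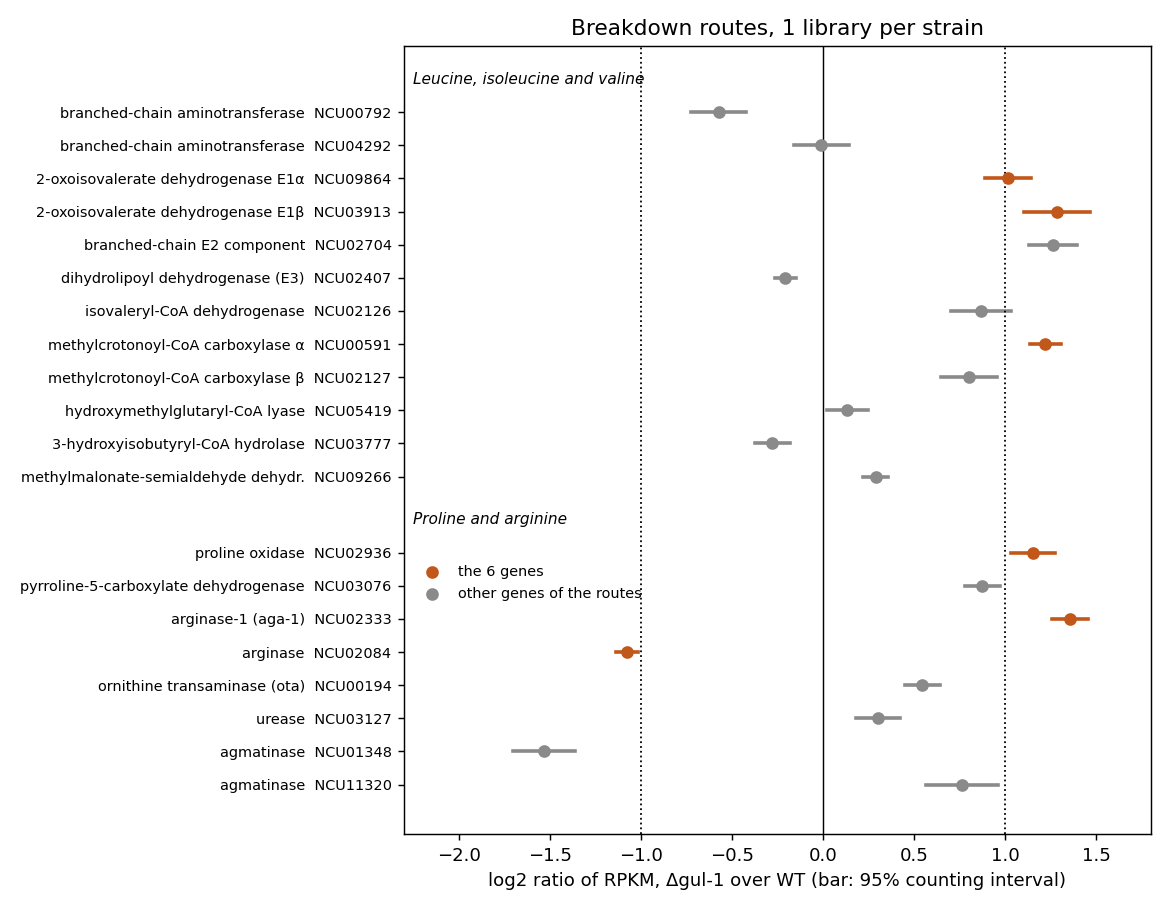
Log2 ratio of RPKM (Δ*gul*-*1* over WT) of genes chosen from the breakdown routes, in pathway order, with the 95% counting interval of each as a bar. The 6 genes are in orange and other genes in grey, with dotted lines at 2-fold in each direction. The 3-hydroxyisobutyrate dehydrogenase genes NCU06559 and NCU10110 (ratios 1.82 and 1.49) are not shown. The E1 and E2 genes and the carboxylase α gene lie at or beyond 1, whereas the E3 gene lies at -0.21 and the aminotransferase genes at -0.57 and -0.01.

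NCU02936, the proline oxidase gene (chromosome I, 8639866 to 8642021), was covered by 818 WT and 1810 Δ*gul*-*1* reads, or 18.5 and 41.3 RPKM. The ratio was 2.23 (interval 2.05 to 2.42), and 2.01 with TMM scaling. The pyrroline-5-carboxylate dehydrogenase gene NCU03076, whose enzyme takes the next step to glutamate, had 1340 and 2445 reads, or 24.9 and 45.6 RPKM. Its ratio of 1.84 (interval 1.72 to 1.96) lay just under 2-fold. The proline oxidase transcript stood at 0.746 times that of the dehydrogenase in the WT and 0.904 times in Δ*gul*-*1* (change 1.21, interval 1.09 to 1.35). As proline oxidase was selected on its change and the dehydrogenase was not, this shift follows in part from that choice.

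The 2 arginase genes went in opposite directions. *aga*-*1* (NCU02333, chromosome VII, 2873838 to 2876240) was covered by 1157 WT and 2943 Δ*gul*-*1* reads, or 28.5 and 72.9 RPKM. Its ratio of 2.56 (interval 2.39 to 2.74) was the largest of the 6 genes. NCU02084 (chromosome I, 1396137 to 1397969) was covered by 6846 WT and 3232 Δ*gul*-*1* reads, or 254.2 and 120.7 RPKM. It was lower by a factor of 2.11 (interval 2.02 to 2.20). In the WT the NCU02084 transcript was 8.93 times as abundant as that of *aga*-*1* (RPKM), and in Δ*gul*-*1* it was 1.66 times as abundant. This ratio was thus 5.39 times smaller in Δ*gul*-*1* (interval 4.97 to 5.84), whatever the scaling of the libraries. Both genes were selected on their change between these libraries, with *aga*-*1* higher and NCU02084 lower. A shift of their ratio therefore follows from that choice and is given only as a description. Together the arginase genes came to 282.7 RPKM in the WT against 193.6 in Δ*gul*-*1*, of which *aga*-*1* made up 10.1% and 37.6%.

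**Figure D3:**
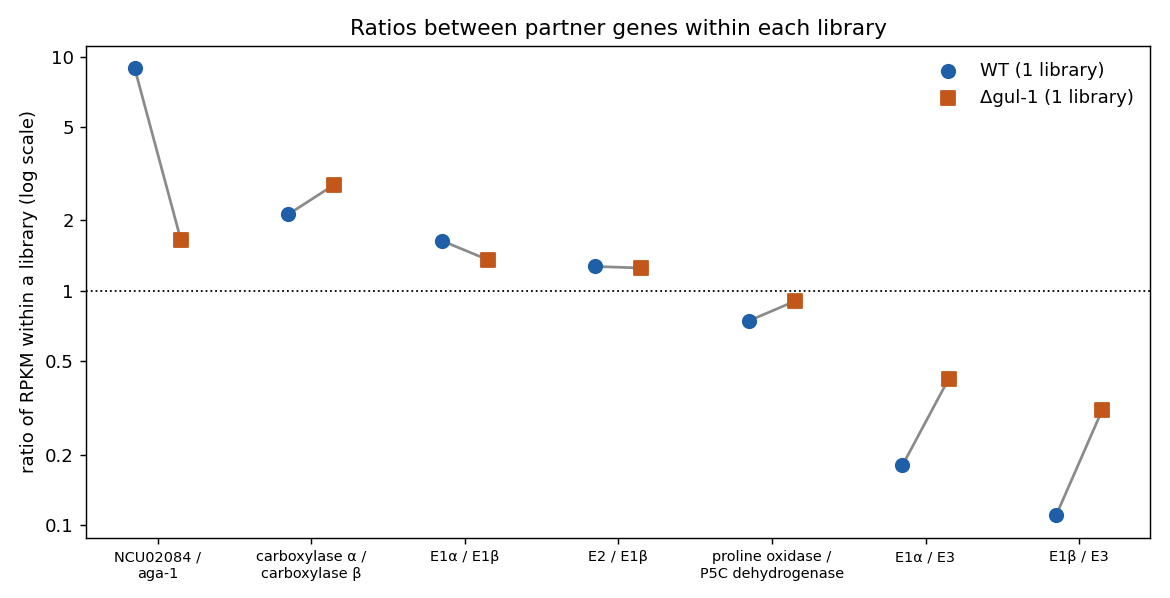
Ratio of RPKM between partner genes within the WT library (circles) and within the Δ*gul*-*1* library (squares), on a log scale, with a dotted line at equal levels. E1 and E2 are parts of the branched-chain 2-oxo acid complex, E3 is dihydrolipoyl dehydrogenase and P5C is pyrroline-5-carboxylate. The ratio of NCU02084 to *aga*-*1* goes from 8.93 to 1.66, while that of E2 to E1 β stays at 1.27 and 1.25.

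Of the 10 other genes with words of proline, arginine, ornithine or urea breakdown in their annotation, 7 passed the floor, with none higher, 1 lower and 6 within 2-fold. Of the 7, 2 passed it in Δ*gul*-*1* alone and 1, the lower gene, in the WT alone. Among all genes past the floor, 3.88% were higher, 2.63% lower and 93.5% within 2-fold. Over all 10 genes the median log2 ratio was 0.43, beside 0.15 for all genes. The ornithine transaminase gene *ota* (NCU00194), which follows arginase, had 29.6 and 43.3 RPKM (ratio 1.46, interval 1.37 to 1.56). The *aga*-*1* transcript went from 0.961 to 1.68 times that of *ota*, a change of 1.75 (interval 1.59 to 1.93). Because *aga*-*1* was selected on its change and *ota* was not, this shift follows in part from that choice. The urease gene NCU03127, whose enzyme splits the urea that arginase gives, stood at 17.2 and 21.2 RPKM (ratio 1.23, interval 1.13 to 1.34). The lower gene was NCU01348, annotated as an agmatinase, an enzyme class that releases urea from agmatine. It had 1092 WT reads, or 26.0 RPKM, and 376 Δ*gul*-*1* reads, which is 0.346 times the WT level (interval 0.307 to 0.390). A second agmatinase gene, NCU11320, was below the floor at 8.33 and 14.1 RPKM. The words also took in *gdh*-*1* (NCU00461), a glutamate dehydrogenase gene, with a ratio of 1.23, 3 urease accessory genes and the ornithine decarboxylase antizyme gene NCU07155, with a ratio of 1.03.

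Words of leucine, isoleucine, valine, proline and arginine synthesis took in 29 genes, among them NCU09703, an acetolactate decarboxylase gene, whose enzyme draws acetolactate away from this synthesis. Without it, 28 genes had a median log2 ratio of -0.05, beside 0.15 for all genes. Past the floor were 16 of them, with 1 higher, none lower and 15 within 2-fold, a share of 93.8% that is close to the 93.5% of all genes past the floor. The higher one, NCU08771, annotated as an acetolactate synthase, an enzyme class of valine and isoleucine synthesis, had 68.8 and 138.5 RPKM. Its ratio of 2.01 (interval 1.94 to 2.09) was within 2-fold with TMM scaling. The lowest ratio past the floor was that of *ilv*-*2* (NCU03608), 0.537 (interval 0.507 to 0.569) at 81.6 and 43.8 RPKM, which TMM scaling placed beyond 2-fold lower. The proline synthesis genes *pro*-*1*, *pro*-*3* and *pro*-*4* were all below the floor, with ratios of 0.661, 0.597 and 0.987.

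**Figure D4:**
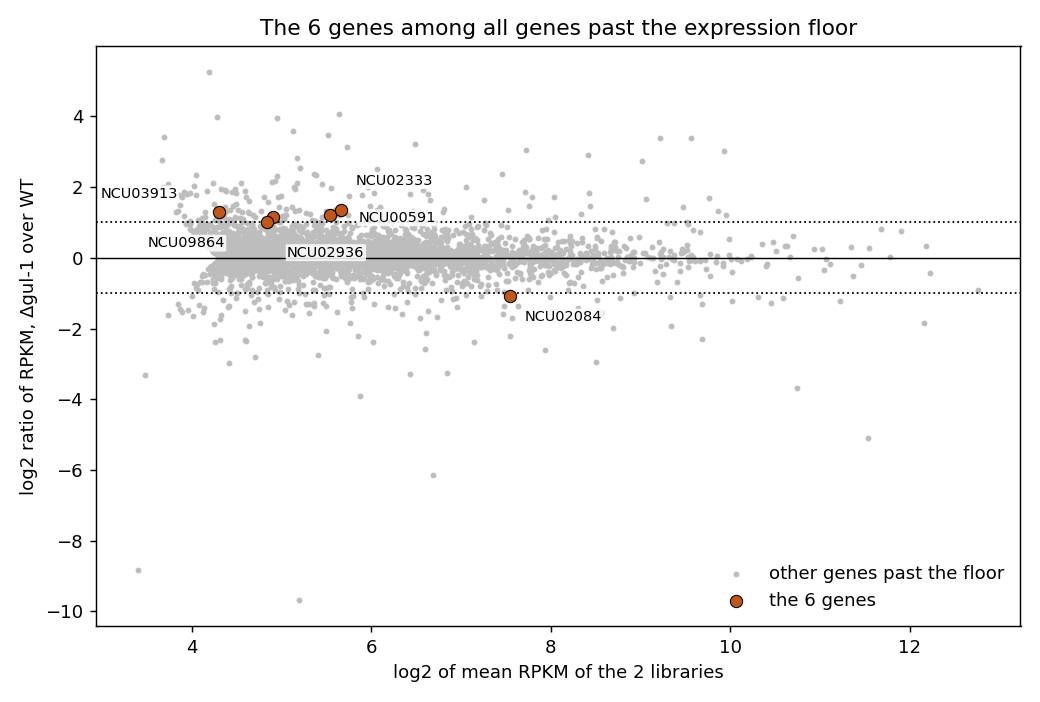
Log2 ratio of RPKM (Δ*gul*-*1* over WT) against the log2 of the mean RPKM of the 2 libraries for the 4409 genes past the floor (grey) and the 6 genes (orange), with dotted lines at 2-fold in each direction. The 5 higher genes lie between 1.02 and 1.36, far inside the range of all genes, which reaches 5.24, and NCU02084 lies at -1.07.

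Among the genes past the floor, ranked from the largest ratio, *aga*-*1* was at rank 90, NCU03913 at 108, NCU00591 at 119, NCU02936 at 137 and NCU09864 at 168. From the smallest ratio, NCU02084 was at rank 104. The genes just outside the 2-fold limit in the same routes were NCU03076 at 1.84, NCU02126 at 1.83 and NCU02127 at 1.74.

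The choice of the genes did not use their place in the genome. NCU00591, NCU02936 and NCU02084 are on chromosome I, NCU03913 and NCU09864 on chromosome VI and *aga*-*1* on chromosome VII, and no 2 of them are neighbours. The 12 genes next to them in RefSeq order had ratios from 0.862 to 1.54, so that none was beyond 2-fold. Among all genes past the floor, 93.5% were likewise within 2-fold. Most of the neighbours were below the floor, so that share is not over like genes. With no floor, 735 genes were higher and 249 lower of the 8985 with reads in both libraries. The ratio of 1.54 was that of NCU09863 (19 and 29 reads) and NCU09865 (17 and 26 reads). RefSeq gives an overlap of 20 bases between the spans of NCU00591 and NCU00592, a pre-mRNA-splicing factor gene with 545 and 746 reads (ratio 1.38). No source used here states whether reads were counted by strand, so reads of that overlap could belong to either gene.

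For each of the 6 genes the annotated gene most like it was taken as the nearest of 2801 in the log2 RPKM of both libraries. With 2 libraries this is a likeness of 2 values only. NCU02084 was nearest to the ATP citrate lyase gene NCU06783, at 248.4 and 119.4 RPKM. *aga*-*1* was nearest to the hydrolase gene NCU05387 (29.9 and 74.8 RPKM), and NCU03913 to the CipA protein gene NCU01138 (ratio 2.48). NCU00591 was nearest to NCU09777 (27.3 and 62.9 RPKM), NCU02936 to the C6 zinc finger gene NCU16599 (19.8 and 44.5 RPKM) and NCU09864 to the phospholipid transporter gene NCU04809 (19.8 and 35.3 RPKM).

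Genes of conidia differed between the libraries without a single direction. Of 6 genes taken as conidial, 5 passed the floor. Of these, *con*-*6* was higher (ratio 2.06, but within 2-fold with TMM scaling) and *eas* lower (5793 and 169.0 RPKM). *con*-*8*, *con*-*10* and *chc*-*1* were within 2-fold, and *con*-*13* was below the floor at 3.15 and 5.14 RPKM. Among all genes past the floor, 3.88% were higher and 2.63% lower. *chc*-*1* (conidiation at high carbon dioxide-1) was taken in by a word of its annotation. The summed level of these conidial genes was 6697 RPKM in the WT against 967.8 in Δ*gul*-*1*, most of it *eas* in the WT, and none of them was at 0. Their part in the values of the 6 genes was not tested.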

How the data were processed

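The authors mapped reads with TopHat2 2.0.8b to the predicted transcripts of the version 12 *N. crassa* genome and used HTSeq 0.5.4p2 to count reads that matched 1 gene alone (versions from the submitters' processing notes). The deposited table gives raw read counts per gene and RPKM, which the authors scaled by exon length and by the reads assigned to genes. Recomputing RPKM from the reads gave the deposited values to within 1.82e-12. The table's 1 column of a comparison between the libraries (NOISeq probability) was not used.

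The ratio of Δ*gul*-*1* to WT was taken from the deposited RPKM without a pseudocount. Its interval is the exact conditional (Clopper-Pearson) 95% interval from the reads, and the change of a ratio between 2 genes has the exact conditional interval of the odds ratio. With 1 library per strain no test was possible. Lists were taken by words in the annotation column. Some words also matched neighbouring functions, such as 3-hydroxyacyl-CoA dehydrogenases and dihydrolipoyl dehydrogenase among the acyl-CoA oxidation genes and an acetolactate decarboxylase among the synthesis genes. Leaving out the last 2, a choice made after seeing the data, changed no count of higher or lower genes. The members and lists were chosen with earlier results of these data known. Named were the 6 genes, list genes beyond 2-fold, enzymes next to a member in its route, genomic neighbours and the gene nearest in level. The choice of genes just outside 2-fold, of the extremes of a list and of other list genes to name was made with their values known. Symbols and positions are from RefSeq NC12, matched by locus tag for 9729 genes. Promoter and protein sequences were not used here. The steps were tested on simulated counts. Alternatives were TMM scaling (edgeR 4.0.16, R 4.3.3), median-of-ratios size factors, the total without the 50 most abundant genes, other floors and thresholds, and a pseudocount. Python 3.11.15, pandas 2.3.3, numpy 2.4.6, scipy 1.17.1 and matplotlib 3.10.9 were used.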

Additional observations from a re-analysis of the deposited data

How the results depend on the processing

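All 6 genes kept their direction under TMM scaling, median-of-ratios size factors, the total without the 50 most abundant genes and a pseudocount of 1 RPKM, and under each of these NCU09864 lay within 2-fold, leaving 4 higher genes. Requiring the whole counting interval to pass 2-fold left 4 higher genes and 1 lower gene. Scaling shifted every log2 ratio by between -0.15 and -0.06. With a floor of 50 RPKM 2 of the 6 genes were counted as higher, and at a threshold of 3-fold 0 were higher and 0 lower. Over all genes, the higher and lower counts were 317 and 170 at a floor of 5 RPKM and 87 and 75 at a floor of 50 RPKM. The number of genes past these other floors was not taken, so no share is given for them. With no floor the counts were 735 and 249 of the 8985 genes with reads in both libraries. Of the 4409 genes past the floor of 20 RPKM, they were 476 and 254 at 1.5-fold and 72 and 43 at 3-fold. Of the other branched-chain breakdown genes, 3 were higher at 1.5-fold and 0 at 3-fold or at a floor of 50 RPKM. Of the other proline and arginine genes, 1 was higher at 1.5-fold or with no floor, and 0 were lower at 3-fold or at a floor of 50 RPKM. Of the acyl-CoA oxidation genes, 5 were higher at 1.5-fold. The 1 higher synthesis gene was within 2-fold in every scaling alternative, with the pseudocount and by its counting interval, leaving 0, as did 3-fold. From the same list 1 gene was lower under TMM scaling, median-of-ratios size factors or at 1.5-fold. No paired analysis was possible because each strain had 1 library. Counting error set interval ends within a factor of 1.13 of the ratio for the 6 genes, and variation between cultures could not be measured.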

Other observations

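Words of acyl-CoA oxidation, which the branched-chain routes share with fatty acid breakdown, took in 21 genes, among them the E3 gene NCU02407, which belongs to the 2-oxo acid dehydrogenase complexes. The 20 genes without it had a median log2 ratio of 0.43, beside 0.15 for all genes with reads in both libraries. Past the floor were 13 of the 20, of which 2 passed it in Δ*gul*-*1* alone. All 13 were within 2-fold, as were 93.5% of all genes past the floor. The highest were the enoyl-CoA hydratase/isomerase gene NCU03542 (22.1 and 38.8 RPKM, ratio 1.76, interval 1.59 to 1.96), the acetyl-CoA acetyltransferase gene NCU09732 (23.0 and 40.2 RPKM, ratio 1.75) and the acyl-CoA dehydrogenase gene *acd*-*2* (NCU08924, 85.5 and 147.1 RPKM, ratio 1.72). A second acetyl-CoA acetyltransferase gene, NCU02571, stood at 24.5 and 24.1 RPKM. The electron transfer flavoprotein, which takes the electrons of acyl-CoA dehydrogenases, had a ratio of 1.37 for its β subunit gene NCU07733 and 0.928 for its α subunit gene NCU08004.

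Isoleucine and valine also give propionyl-CoA, which fungi use through the methylcitrate cycle. Words of this cycle and of propionate-CoA ligase, an enzyme outside the cycle, took in 3 genes. Of these, 2 passed the floor and both were within 2-fold, as were 93.5% of all genes past the floor. The 2-methylcitrate dehydratase gene NCU00680 had 112.0 and 114.4 RPKM, and the propionate-CoA ligase gene NCU01417 60.7 and 76.2 RPKM. The 2-methylisocitrate lyase gene NCU02481 was below the floor at 15.1 and 9.30 RPKM (ratio 0.616). Words for other 2-oxo acid dehydrogenase complexes and biotin carboxylases took in 4 genes, the shared E3 gene included, all within 2-fold. The others were the pyruvate dehydrogenase X component gene NCU00050 (ratio 0.847), the dihydrolipoamide succinyltransferase gene NCU02438 (0.962, with an interval of 0.914 to 1.01 that held 1) and the acetyl-CoA carboxylase gene NCU08535 (0.723). These words took in no E1 gene of another complex and no pyruvate carboxylase gene, so they do not describe those enzymes as a whole.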
